A study of Sus scrofa with 28 samples.

Results

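The genes described here drive DNA synthesis, chromosome segregation and cell division, and together they make up the usual expression signature of proliferating tissue. They were taken from a list of 57 symbols. A listed gene counted as measured when the annotation of the porcine array gave its symbol, and no other, to at least 1 probe set, and each gene was represented by its brightest probe set. By this rule 34 of the 57 symbols were measured, through 44 probe sets, and 8 of the 34 had more than 1 probe set. The whole array held 23999 probe sets, of which 10069 carried a single symbol and covered 6765 genes. The 23 symbols without such a probe set in the annotation used here were the cyclins CCND1, CCND3 and CCNE2, the kinases CDK1 (listed also under its older symbol CDC2), CDK4, BUB1, BUB1B and PBK, the S phase genes E2F1, TK1, CDC6 and GINS2, the condensin genes SMC2 and NCAPG, and MKI67, CENPA, ZWINT, KIF11, TPX2, PRC1, ECT2 and CDCA8. The proliferation marker MKI67 and the central mitotic kinase CDK1 were therefore not analysed here.

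Lung RNA of 10 female large swine (Sus scrofa) was hybridised to Affymetrix porcine arrays. The animals were anesthetized, intubated and exposed in the supine position for 10 min. Control animals breathed air (animals 28, 29 and 44), low-dose animals received 60 µg/kg sulfur mustard (HD) vapor (animals 31, 32 and 33), and medium-dose animals received 100 µg/kg (animals 34, 39, 41 and 42). The left apical, median and caudal lobes were collected 12 h later, giving 28 arrays: 9 from air, 9 from low and 10 from medium animals. The caudal lobe of medium animal 39 and the apical lobe of medium animal 41 are not among the arrays, so the means of these animals are over the other lobes. The animal numbers in the sample titles mark separate animals, so the animal was the replicate for exposure. The labels name no strain, age or batch. Each array measured a whole piece of lobe, in which fewer dividing cells and less RNA of a gene per cell cannot be told apart.

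Cells enter the cycle when cyclin D and cyclin E kinases release E2F factors, copy their DNA with the help of nucleotide-synthesis and fork proteins, and then divide under the control of cyclin B kinase, the Aurora and Polo kinases and the spindle checkpoint. In resting adult lung few cells divide. Sulfur mustard alkylates DNA, and DNA damage is known to halt the cycle through CDKN1A and related inhibitors.

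The deposited values were linear signal intensities, in which the median of an array lay between 55.4 and 64.2 and the highest signal between 3360 and 5495. Lung markers were bright, with a mean signal of 2929 for the surfactant gene SFTPC, 668 for the type I cell gene AGER and 1667 for the endothelial gene PECAM1. The control probe sets for actin and GAPDH gave an index of RNA integrity, their mean log2 ratio of 3′ over 5′ signal, which was 2.22 in medium animal 39 and between 0.616 and 1.35 in the other 9 animals. Mean signals of the members ran from 6.82 for KIF20A, at percentile 13.9 of all probe sets, to 1052 for CCND2, at percentile 97.1. Signals of different probe sets depend on their probes and are not compared with each other here.

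None of the 34 genes was called between exposures. Differences are given as log2 differences of log2(signal + 16) after quantile normalization, with the standard error, and a gene was called when limma's Benjamini-Hochberg adjusted p over all 23999 probe sets was under 0.05. By that rule 0 of 34 genes were called in low versus air, where the share of all probe sets called was 0%. In medium versus air 0 of 34 were called, against 0.129% of all probe sets. In medium versus low 0 of 34 were called, against 0.00417%. These counts did not stand above the background.

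Without adjustment, limma's p was under 0.05 for 2 of 34 genes in low versus air, 4 in medium versus air and 4 in medium versus low, where 7.42%, 16.6% and 18.2% of all probe sets were. The 95% interval of the difference lay inside a 2-fold change in either direction for 33 of 34 genes in each of the 3 exposure comparisons, and the exception each time was TYMS. It lay inside a 1.5-fold change for 28 genes in low versus air, 29 in medium versus air and 32 in medium versus low. On this scale, larger changes than these bounds were thus outside the intervals for most members. The constant added to each signal before the logarithm shrinks fold changes of dim members, so the bounds do not carry over to their deposited signals. The mean signal of KIF20A was 9.69 in air and 4.70 in medium animals, and that of CCNA2 was 19.7 in air and 29.9 in low animals. The median distance from a difference to either end of its interval was 0.30 in low versus air and 0.28 in the other comparisons, and the interval excluded 0 for 2, 4 and 4 members. The median difference over the members was -0.07 in low versus air, -0.06 in medium versus air and 0.01 in medium versus low. Over all probe sets it was -0.01, -0.00 and 0.00.

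**Figure D1:**
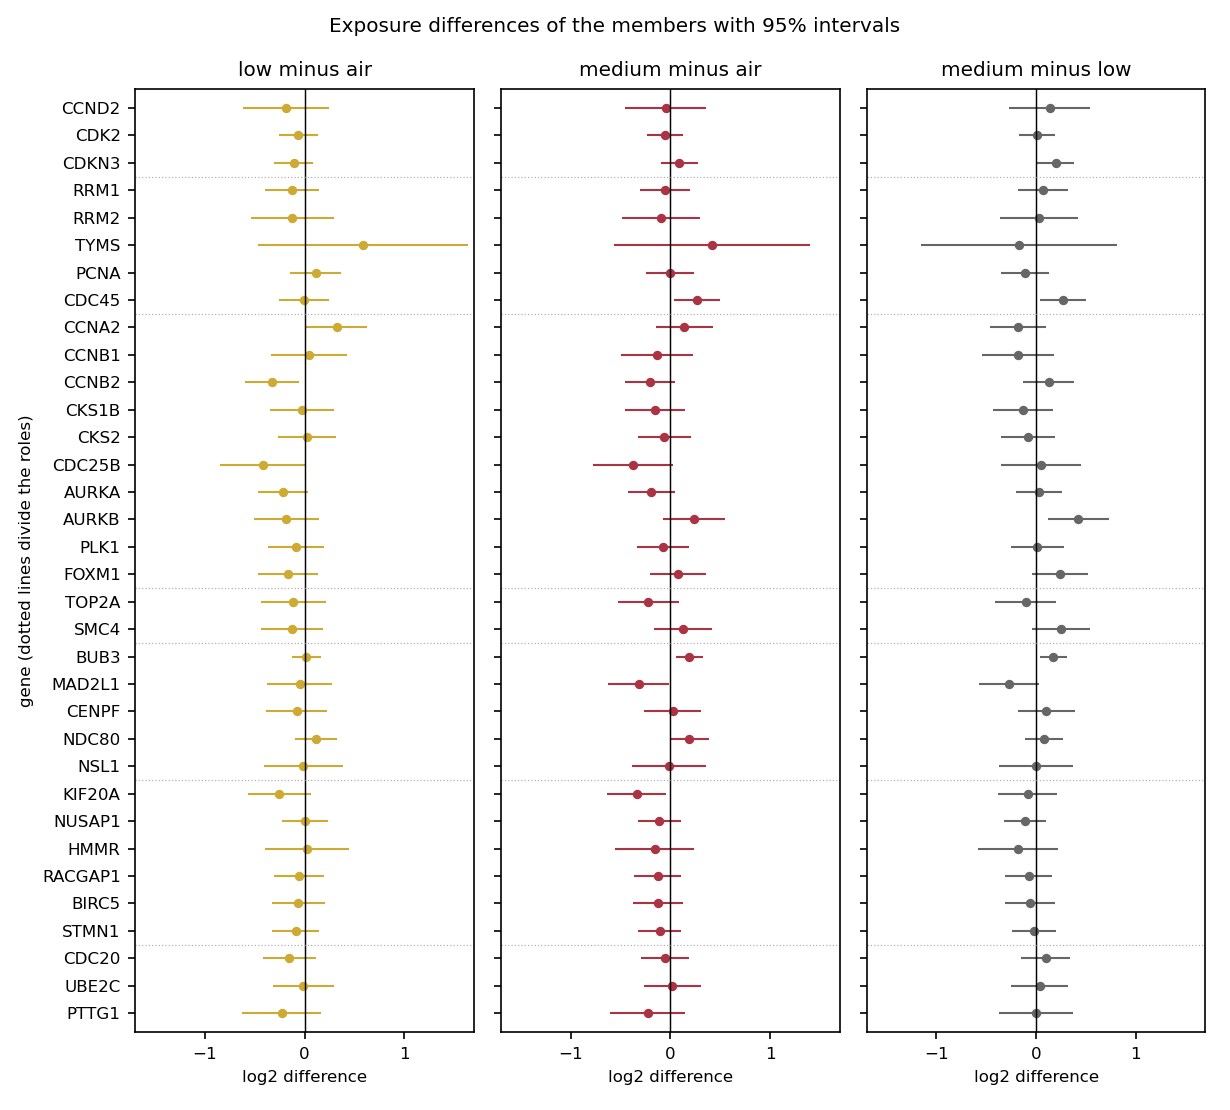
Difference of each of the 34 members between exposures (x axis, log2 difference, points) with its 95% interval (lines), genes on the y axis in order of their roles; the 3 panels are low against air, medium against air and medium against low. Most intervals cross 0, and that of TYMS runs from -0.46 to 1.64 in low against air.

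The genes of G1 and S phase entry with a probe set were CCND2, CDK2 and CDKN3. CCND2 encodes a D-type cyclin that starts G1 progression, CDK2 the kinase that drives S phase, and CDKN3 a phosphatase that acts on cyclin-dependent kinases. CDKN3 signals were 96.4, 83.6 and 81.1 in the air animals, 82.3, 84.7 and 75.0 in the low animals, and 101, 88.02, 94.4 and 82.0 in the medium animals. The 3 groups overlapped in these signals. Medium minus low was 0.20 ± 0.08 (n = 4 and 3 animals, adjusted p = 0.25), and all 4 medium animals lay above the low mean. Low minus air was -0.11 and medium minus air 0.09. CCND2 averaged 1075 ± 103 in air (SD, n = 3), 941 ± 83.8 in low (n = 3) and 1110 ± 193 in medium animals (n = 4), so that the medium animals alone covered the range of both other groups. CDK2 averaged 151 ± 4.94, 144 ± 13.9 and 143 ± 11.9, with differences between -0.06 and 0.01. A dimmer CDK2 probe set (mean signal 14.1) differed by 0.24 ± 0.10 in low versus air (adjusted p = 0.67) where the brightest gave -0.06 ± 0.09.

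Among the genes of nucleotide and DNA synthesis, TYMS, which encodes thymidylate synthase, had the largest spread of all members between animals of 1 exposure. It is named for that spread, after its values were seen. Its signal was 38.8, 39.1 and 43.8 in the air animals, 93.3, 54.0 and 69.7 in low animals 31, 32 and 33, and 190, 35.6, 33.3 and 49.0 in medium animals 34, 39, 41 and 42. All 3 low animals were above all 3 air animals, while 1 medium animal was far above and the other 3 were near the air level. In medium animal 34 the high level was present in every lobe, at 153 in the apical, 196 in the median and 223 in the caudal lobe. The differences were 0.59 ± 0.47 in low versus air (adjusted p = 0.75) and 0.42 ± 0.44 in medium versus air (adjusted p = 0.68). Between animals of 1 exposure the SD of TYMS was 0.67 on the log2 scale. The residual SD of its single arrays, after terms for animal and lobe, was 0.29. Its other probe set stayed near a signal of 0.928 and gave no usable value.

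PCNA encodes the sliding clamp of DNA polymerase. Its signals were 328, 312 and 307 in air, 365, 322 and 325 in low, and 393, 293, 304 and 291 in medium animals. Medium animal 34 stood apart from the other 3 medium animals, which lay below the air mean. The difference was 0.11 ± 0.11 in low versus air (adjusted p = 0.82) and -0.00 ± 0.11 in medium versus air (adjusted p = 1.00). The sign of the second value turned under several alternatives and carries no direction.

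CDC45, part of the replicative helicase, had signals of 75.7, 71.6 and 66.9 in air, 75.7, 74.1 and 66.2 in low, and 83.0, 99.7, 96.1 and 72.5 in medium animals. Medium animals 34, 39 and 41 were above every other animal, and animal 42 was within the air range. Medium minus air was 0.26 ± 0.10 (adjusted p = 0.25) and medium minus low 0.27 ± 0.10 (adjusted p = 0.22). The dimmer CDC45 probe set, with a mean signal of 15.4, went the other way in medium versus air, at -0.27 ± 0.18 (adjusted p = 0.47), and with both probe sets averaged the difference was -0.00. RRM1 and RRM2, the subunits of ribonucleotide reductase, differed by between -0.12 and 0.07 in the 3 comparisons. RRM1 averaged 486 ± 51.3 in air (SD, n = 3), 443 ± 27.7 in low (n = 3) and 471 ± 69.2 in medium animals (n = 4), and RRM2 138 ± 16.3, 126 ± 20.3 and 128 ± 28.1.

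**Figure D2:**
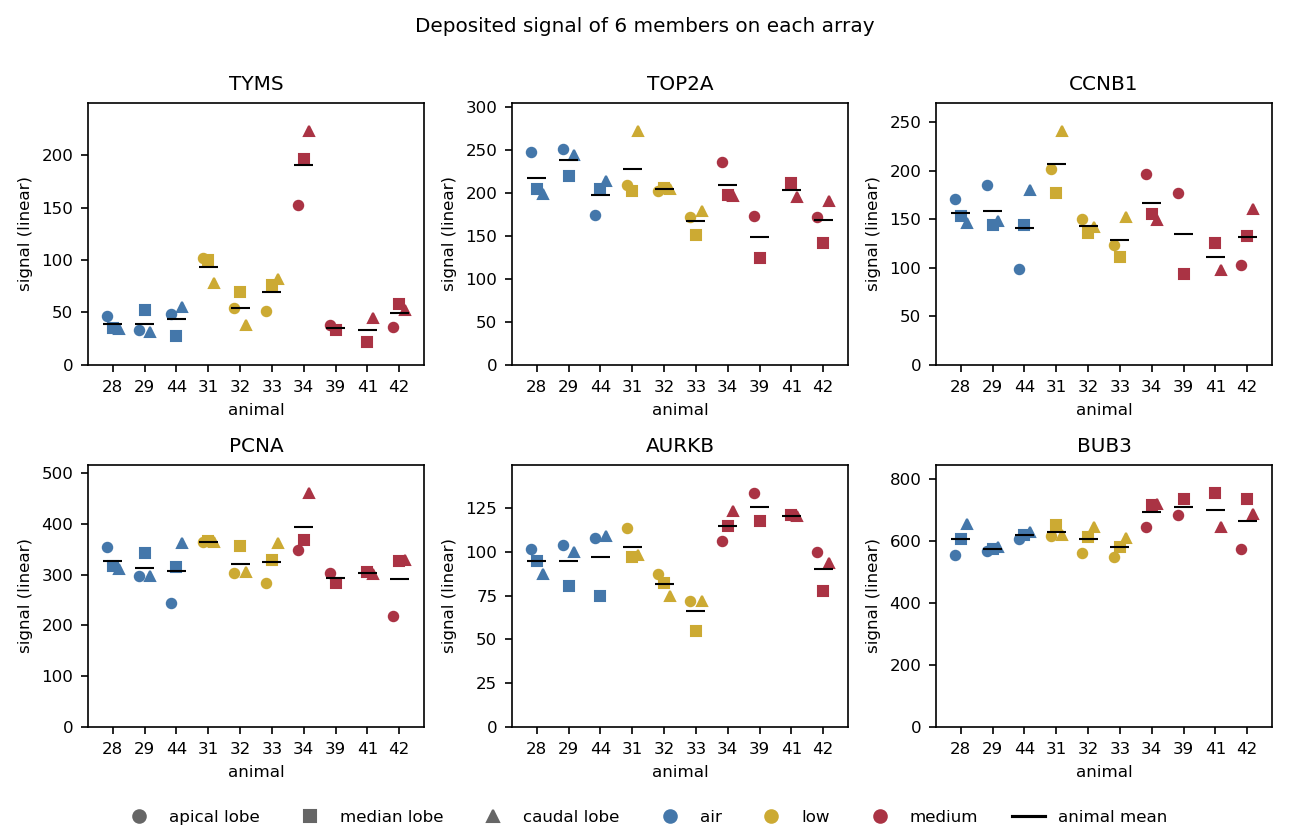
Deposited signal (y axis, linear, from 0) of TYMS, TOP2A, CCNB1, PCNA, AURKB and BUB3 on each of the 28 arrays, by animal (x axis); colours mark the exposure, symbols the lobe and black lines the animal's mean. TYMS is high in all 3 lobes of medium animal 34, and the 4 medium means of BUB3, between 665 and 708, lie above the 6 others.

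Of the mitotic cyclins and kinases, 10 of 13 listed genes were measured, and 3 of the 10 had a difference above 0 in low versus air and 3 in medium versus air. CCNA2 encodes cyclin A, active from S phase to early mitosis. Its signals were low. They were 19.2, 22.7 and 17.1 in air, 30.9, 33.5 and 25.4 in low, and 30.3, 15.1, 25.5 and 28.4 in medium animals. All low animals were above all air animals. Medium animal 39 was below the air animals in deposited signal, the other 3 were above them, and low animals 31 and 32 were above all 4. Low minus air was 0.32 ± 0.14 (adjusted p = 0.67) and medium minus air 0.14.

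The B-type cyclins bind CDK1 at mitosis, and both lay below the air mean in low animals 32 and 33. CCNB1 signals were 157, 159 and 141 in air, 207, 143 and 129 in low, and 167, 135, 112 and 132 in medium animals. Low animal 31 and low animal 33 held the highest and one of the lowest values of the 10 animals, and the low group enclosed the air group. CCNB1 differed by 0.05 ± 0.17 in low versus air (adjusted p = 0.96), which was -0.15 without low animal 31, and by -0.13 ± 0.16 in medium versus air (adjusted p = 0.73).

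CCNB2 signals were 57.0, 69.4 and 63.7 in air, 57.9, 49.3 and 38.6 in low, and 60.1, 43.5, 51.1 and 53.7 in medium animals. On the normalised scale the low animals lay below all air animals, though the deposited signal of low animal 31 was just above that of air animal 28. CCNB2 differed by -0.33 ± 0.12 in low versus air (adjusted p = 0.66) and by -0.20 ± 0.11 in medium versus air (adjusted p = 0.40). CDC25B, a phosphatase that activates cyclin-dependent kinases, had signals of 229, 285 and 287 in air, 195, 206 and 179 in low, and 222, 283, 166 and 149 in medium animals. The low animals were all below the air animals, and the medium animals spread from the air range to the lowest values of all. Its differences were -0.42 ± 0.19 in low versus air (adjusted p = 0.68) and -0.37 ± 0.18 in medium versus air (adjusted p = 0.32).

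The Aurora kinases act at different sites, AURKA at the spindle poles and AURKB with the chromosomal passenger complex. AURKA signals were 71.5, 74.1 and 65.1 in air, 66.8, 56.0 and 55.1 in low, and 62.7, 62.5, 51.3 and 61.3 in medium animals. In deposited signal only low animal 31 reached the air range. On the normalised scale medium animal 39 did too, at 6.38 against 6.32 in air animal 44. AURKA differed by -0.22 ± 0.11 in low versus air (adjusted p = 0.69) and by -0.19 ± 0.10 in medium versus air (adjusted p = 0.40). Its dimmer probe set gave 0.17 ± 0.19 in low versus air, of the other sign.

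AURKB signals were 94.6, 94.6 and 97.2 in air, 103, 81.4 and 66.1 in low, and 115, 126, 121 and 90.4 in medium animals. Medium animals 34, 39 and 41 were the highest of all, while animal 42 was below the air animals and below low animal 31. Medium minus low was 0.42 ± 0.14 (adjusted p = 0.18), the largest difference of any member in that comparison, and all 4 medium animals were above the low mean. With the animal as a random effect over all arrays, this difference was 0.41 with an adjusted p of 0.0246 (0.0246 to 0.53 over its 20 alternatives), and AURKB was then called, as were 1393 of all probe sets against 1 in the fit over animals. Medium minus air was 0.24 ± 0.14 (adjusted p = 0.42). The other 4 genes of this role were PLK1, the Polo kinase, FOXM1, the transcription factor of mitotic genes, and the kinase-binding proteins CKS1B and CKS2, and their differences in the 3 comparisons ran from -0.17 to 0.24.

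The chromosome structure genes measured were TOP2A, which encodes the topoisomerase that untangles sister DNA, and SMC4, a condensin subunit. TOP2A signals were 217, 239 and 197 in air, 228, 204 and 167 in low, and 210, 149, 204 and 168 in medium animals. The groups overlapped throughout, and medium animals 39 and 42 and low animal 33 were the lowest. TOP2A differed by -0.11 ± 0.15 in low versus air (adjusted p = 0.85) and by -0.22 ± 0.14 in medium versus air (adjusted p = 0.45). SMC4 averaged 296 ± 46.2 in air (SD, n = 3), 263 ± 31.8 in low (n = 3) and 322 ± 37.9 in medium animals (n = 4), and differed by 0.25 ± 0.13 in medium versus low (adjusted p = 0.33).

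Kinetochore and checkpoint genes link chromosomes to the spindle and delay anaphase until all are attached. BUB3, a checkpoint protein that also has roles outside mitosis, had signals of 605, 574 and 619 in air, 628, 607 and 580 in low, and 693, 708, 699 and 665 in medium animals. All 4 medium animals lay above all 6 others, the only member for which this was so. The sizes were small, at 0.19 ± 0.06 in medium versus air (adjusted p = 0.18) and 0.17 ± 0.06 in medium versus low (adjusted p = 0.20). BUB3 also had the smallest spread of all members between animals of 1 exposure, with an SD of 0.05.

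MAD2L1, which holds back the anaphase promoting complex, had signals of 442, 410 and 369 in air, 428, 327 and 426 in low, and 381, 366, 267 and 292 in medium animals. Medium animals 41 and 42 were below every air and low animal, while animals 34 and 39 were close to the lowest air animal. Its differences were -0.32 ± 0.14 in medium versus air (adjusted p = 0.28) and -0.27 ± 0.14 in medium versus low (adjusted p = 0.32). NDC80 encodes the microtubule-binding kinetochore subunit. Its signals were 35.9, 37.8 and 34.7 in air, 46.1, 41.2 and 38.6 in low, and 49.7, 39.2, 49.3 and 38.8 in medium animals. In the deposited signals every exposed animal was above the air animals, but on the normalised scale the groups overlapped. NDC80 differed by 0.19 ± 0.09 in medium versus air (adjusted p = 0.30) and by 0.11 in low versus air.

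NSL1, a subunit of the MIS12 kinetochore complex, had 3 probe sets that disagreed. The brightest, with a mean signal of 201, differed by -0.01 ± 0.17 in medium versus air (adjusted p = 0.98). The next, with a mean signal of 184, read 231, 211 and 235 in air, 180, 202 and 190 in low, and 149, 143, 143 and 132 in medium animals. These 3 groups did not overlap. Of all probe sets, low lay below air without overlap for 9.4%, medium below air for 6.58% and medium below low for 6.58%. The second NSL1 probe set fell by 0.63 on the log2 scale in medium versus air (SE 0.07, adjusted p = 0.02), the only one of the 44 probe sets called there. The dimmest, with a mean signal of 49.9, differed by -0.23 ± 0.16 (adjusted p = 0.51). What the second NSL1 probe set measures was not tested, and by the rule of the brightest probe set NSL1 was not called. CENPF, a kinetochore protein of late G2 and mitosis, averaged 97.1 ± 7.38 in air, 92.9 ± 22.2 in low and 96.3 ± 7.53 in medium animals.

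The spindle and cytokinesis genes were KIF20A, NUSAP1, HMMR, RACGAP1, BIRC5 and STMN1, and all 6 had differences below 0 in medium versus air and in medium versus low. KIF20A, a kinesin of the central spindle, was the dimmest member, with signals of 9.54, 11.8 and 7.76 in air, 9.31, 5.64 and 2.85 in low, and 8.35, 3.08, 2.88 and 4.49 in medium animals. Medium animals 39, 41 and 42 and low animals 32 and 33 were below every air animal, and animals 34 and 31 were not. KIF20A differed by -0.34 ± 0.13 in medium versus air (adjusted p = 0.25) and by -0.25 ± 0.14 in low versus air (adjusted p = 0.70). At signals this low the value depends on the offset of 16: with an offset of 1 the medium difference was -1.02, with an adjusted p of 0.27 (0.0981 to 0.582 over 19 alternatives). The other 5 genes differed in medium versus air by between -0.16 and -0.11. STMN1, a regulator of microtubules, averaged 1052 ± 17.97 in air (SD, n = 3), 999 ± 127 in low (n = 3) and 973 ± 99.5 in medium animals (n = 4), and BIRC5, the survivin of the chromosomal passenger complex, 156 ± 12.1, 149 ± 21.8 and 142 ± 18.1.

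The mitotic exit genes all serve the anaphase promoting complex: CDC20 activates it, UBE2C is its ubiquitin-conjugating enzyme, and PTTG1, or securin, is its substrate. PTTG1 signals were 130, 118 and 125 in air, 122, 106 and 89.1 in low, and 147, 95.2, 79.1 and 94.4 in medium animals. Medium animal 34 held the highest value of the 10 animals and the other 3 medium animals were below all air animals. PTTG1 differed by -0.23 ± 0.18 in low versus air (adjusted p = 0.74) and by -0.23 ± 0.17 in medium versus air (adjusted p = 0.53). CDC20 averaged 92.4 ± 10.8, 83.4 ± 14.6 and 87.2 ± 6.88, and UBE2C 185 ± 13.6, 185 ± 38.0 and 188 ± 18.1.

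Counted by direction, 9 of 34 members had a difference above 0 in low versus air, where 48.4% of all probe sets did. In medium versus air 11 did, against 49.9% of all probe sets, and in medium versus low 20, against 50.7%. The comparisons share animals, so these counts are not independent of each other.

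The values of the low and air animals did not overlap, with the low animals higher, for TYMS, PCNA and CCNA2, which is 3 of 34 against 9.21% of all probe sets. With the low animals lower they did not overlap for CCNB2 and CDC25B, which is 2 of 34 against 9.4%. These counts use the normalised values. For BUB3 alone all medium animals were above all air animals (6.89% of all probe sets) and above all low animals (7.24%). In the other direction no member separated medium from air (0 of 34, against 6.58%) or medium from low (0 of 34, also against 6.58%).

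Compared in 1 lobe at a time, no member was called between exposures. In the apical lobe limma called 0 of 34 genes in each of the 3 comparisons, and 0% of all probe sets. In the median lobe it called 0 of 34 in low versus air (0% of all), 0 of 34 in medium versus air (0.404%) and 0 of 34 in medium versus low (0.0208%). In the caudal lobe it called 0 of 34 in low versus air (0%), medium versus air (0.00417%) and medium versus low (0%). Unadjusted p was under 0.05 for 1 to 6 of the 34 genes in these 9 comparisons.

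The member nearest to a call was KIF20A in the median lobe, at -0.61 ± 0.12 in medium versus air (adjusted p = 0.0605), and without medium animal 34 it was called, with an adjusted p of 0.0425. In the apical lobe the smallest p belonged to FOXM1 in medium versus low, at 0.51 ± 0.14 (adjusted p = 0.37), and to CCNA2 in low versus air, at 0.46 ± 0.14 (adjusted p = 0.69). In the caudal lobe it belonged to CDC25B in medium versus air, at -0.53 ± 0.18 (adjusted p = 0.22). The interaction of exposure and lobe was called for 0 of 34 members and 0% of all probe sets. Its unadjusted p was under 0.05 for 2 members, CDKN3 (adjusted p = 0.60) and NSL1 (adjusted p = 0.63), and for 7.39% of all probe sets.

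Many of the members were high or low in the same animals of an exposure. Low animal 33 was the lowest low animal for 28 of 34 genes, against 33.6% of all probe sets, and low animal 31 the highest for 24 of 34, against 29.2%. Medium animal 34 was the highest medium animal for 22 of 34 genes, against 24.8% of all probe sets. Of the air animals, animal 44 was the lowest for 19 of 34 genes, against 37.7%. All 10 mitotic kinases and cyclins and all 6 spindle and cytokinesis genes lay above their group's mean in animal 31 and in animal 34, and all 16 lay below it in animal 33. The median deviation of the 34 genes from their group's mean was 0.14 in animal 31, -0.15 in animal 33 and 0.13 in animal 34, and between -0.09 and 0.03 in the other 7.

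**Figure D3:**
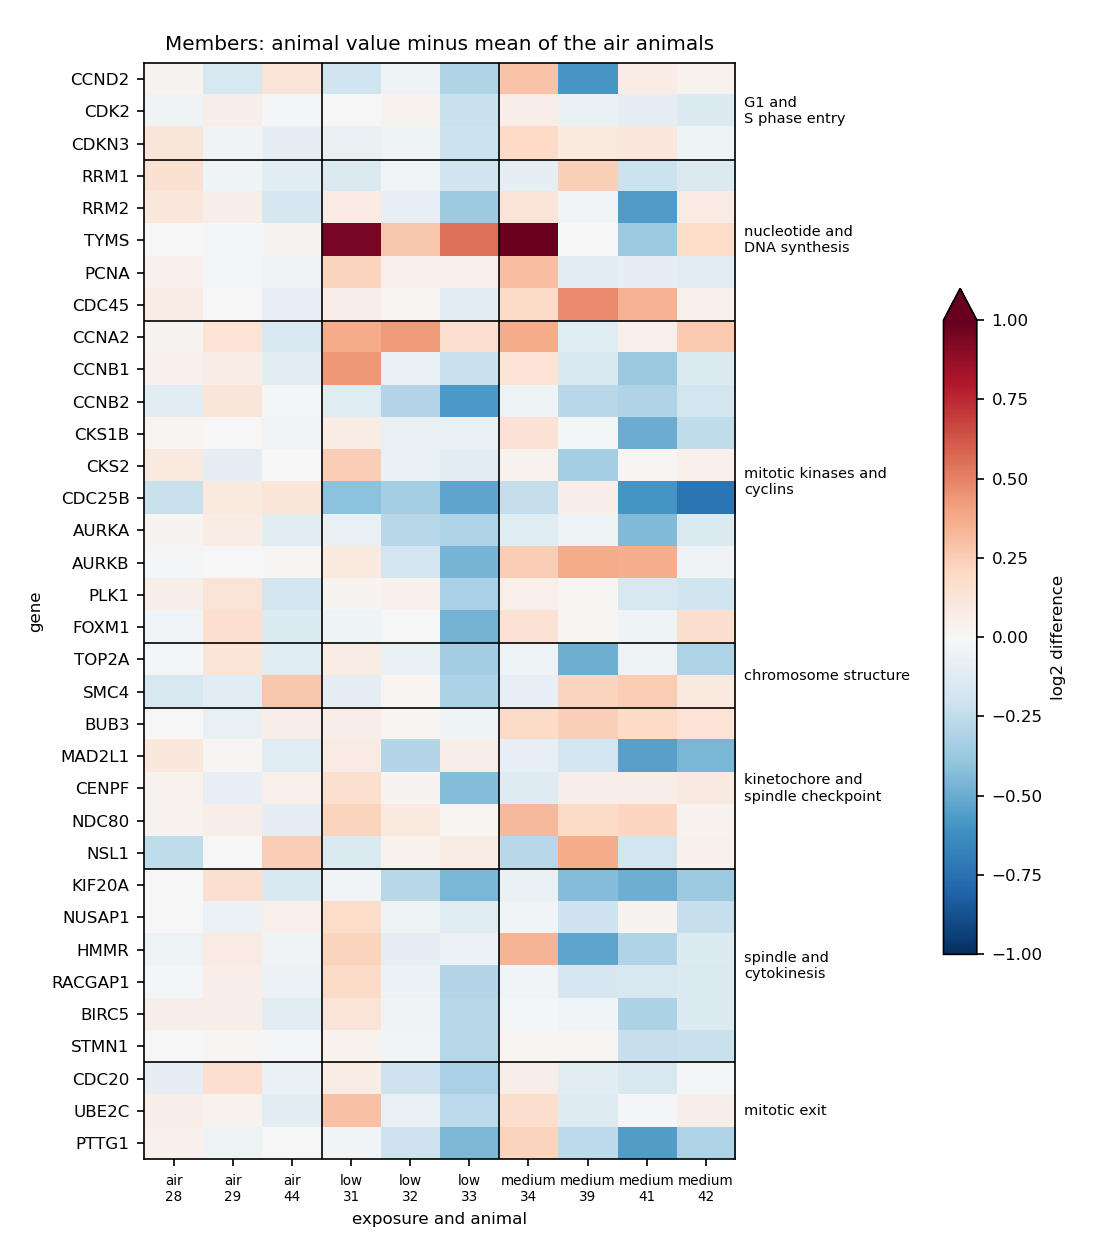
Normalised value of each member (rows, grouped by role) in each animal (columns) minus the mean of the 3 air animals, as a log2 difference on a colour scale from -1 to 1. TYMS in medium animal 34, at 1.86, is beyond the scale; most genes of low animal 33 are blue, and low animal 31 and medium animal 34 are mostly pale or red.

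Animals 31, 33 and 34 stood out in each lobe, and air animal 44 did not. Animal 33 was the lowest of the low arrays for 26 of 34 genes in the apical, 28 in the median and 21 in the caudal lobe. For all probe sets the shares were 30.3%, 32.8% and 34.1%. Animal 31 was the highest for 18, 23 and 26 genes (32.2%, 32.5% and 30.6% of all probe sets). Animal 34 was the highest of the medium arrays for 19, 19 and 22 genes (30.8%, 23.9% and 37.6% of all probe sets). Those lobes had 3, 4 and 3 medium arrays. Animal 44 was the lowest of the air arrays for 23, 16 and 11 genes (37.4%, 36.6% and 36.7% of all probe sets). In the caudal lobe it was the highest for 14 (34.2%). Other animals reached similar counts in 1 lobe only. Medium animal 42 was the lowest medium array for 23 genes in the apical lobe (32.6%), but for 9 and 11 in the median and caudal lobes. Medium animal 41 was the lowest for 21 genes in the caudal lobe (33.7%), but for 7 in the median lobe. The lobes of an animal are pieces of 1 lung and are not independent, and the 34 genes are not independent of each other.

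The medians over the members rested on these animals. The median difference in low versus air was -0.07 over all animals, 0.00 without low animal 33 and -0.15 without low animal 31. In medium versus air it was -0.06, and -0.11 without medium animal 34. In medium versus low it was 0.01, and -0.09 without low animal 33. No fit that left out an animal called a member over all lobes.

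Animals 31 and 33, which lay on opposite sides, had the same RNA index of 0.616, and animal 34 had 0.664. Cell type markers were set beside the members within each exposure. Among low animals 31, 32 and 33 the summed signal of 3 B and plasma cell markers was 1687, 1642 and 1476 and that of 8 endothelial markers 6555, 6215 and 5808, so both were highest in animal 31 and lowest in animal 33, as the members were. The sum of 14 T and NK cell markers was 1771, 2725 and 2486, lowest in animal 31. The macrophage and neutrophil sums were highest in animal 31 and lowest in animal 32, the ciliated sum was lowest in animal 31, and the epithelial sum was lowest in animal 33. Among the medium animals, animal 34 had the highest sum of T and NK markers (2120, against 1185 to 1620 in the others), of B and plasma cell markers (1703, against 1446 to 1657) and of macrophage markers (8233, against 4702 to 7298). It had the lowest ciliated sum and lay between the others for the remaining 3 lists. The part of these cells in the members' values was not tested. Whether the share of dividing cells, or of any cell type, differed between them was not tested.

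**Figure D4:**
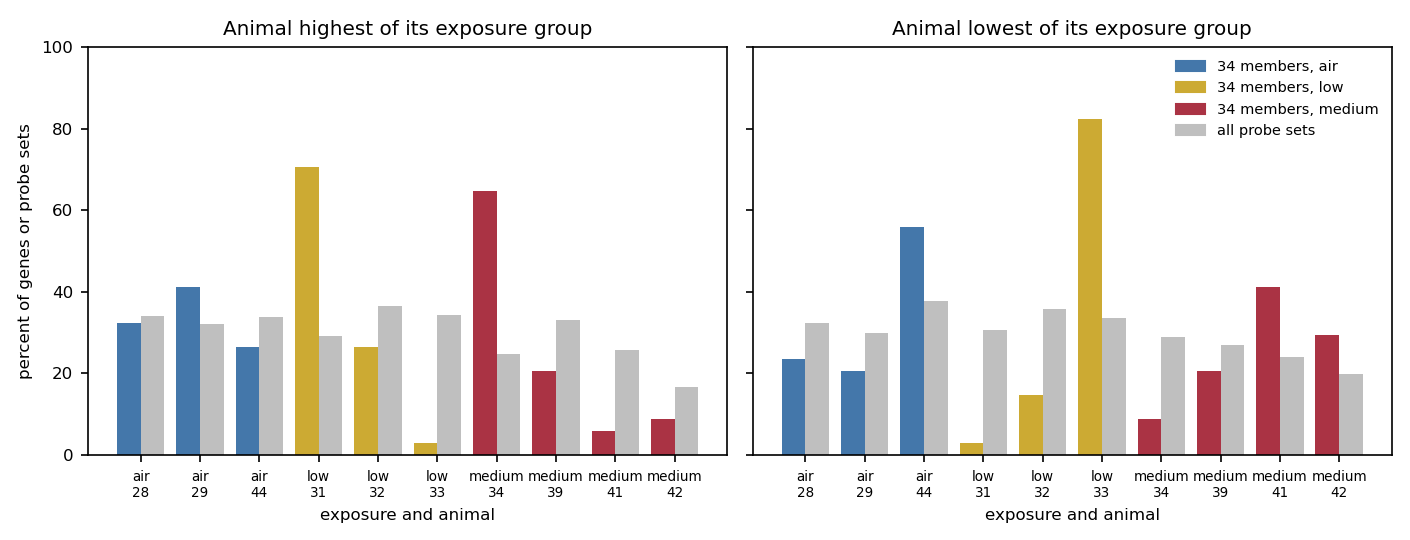
Percent of the 34 members (coloured bars) and of all probe sets (grey bars) for which each animal (x axis) was the highest (left) or the lowest (right) of its exposure group; y axis from 0 to 100 percent. Low animal 33 is the lowest for 82.4% of the members and 33.6% of all probe sets, and low animal 31 the highest for 70.6% and 29.2%.

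Over the 34 members the median SD between animals of 1 exposure was 0.18 on the log2 scale. The median residual SD of single arrays, after terms for animal and lobe, was 0.15. Over all probe sets the values were 0.15 and 0.16. The SD between animals was above the residual SD for 18 of 34 members and 10775 of 23999 probe sets. An animal's value combines several arrays, so an SD of animals and an SD of single arrays are not directly comparable.

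The lobes were compared within animals, with the animal as a block, and no member was called. In apical versus median, limma called 0 of 34 members, against 2.41% of all probe sets. In apical versus caudal it called 0 of 34, against 0.167%, and in median versus caudal 0 of 34, against 0%. Unadjusted p was under 0.05 for 3, 3 and 5 members, where 16.6%, 13.6% and 11.6% of all probe sets were. On the scale with the added constant, every one of the 34 intervals in each lobe comparison lay inside a 1.5-fold change.

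AURKB and BUB3 came nearest to a call, in apical versus median and with opposite signs. AURKB signals had a lowest value of 71.8, a median of 104 and a highest of 134 over the 9 apical arrays, and of 54.7, 88.5 and 121 over the 10 median-lobe arrays. AURKB was higher in the apical lobe in 8 of 9 animals, with a difference of 0.20 ± 0.06 (adjusted p = 0.054). BUB3 signals had a lowest value of 548, a median of 575 and a highest of 682 in the apical lobe, 573, 635 and 755 in the median lobe, and 582, 644 and 720 in the caudal lobe. BUB3 was lower in the apical than in the median lobe in 9 of 9 animals, by -0.13 ± 0.04 (adjusted p = 0.07), and lower than in the caudal lobe in 7 of 8, by -0.12 ± 0.04 (adjusted p = 0.18). The ranges of the lobes overlapped for both genes, and the differences are those within animals. When only probe sets brighter than the median were tested, both genes were called, with adjusted p of 0.0263 for AURKB and 0.0364 for BUB3. That setting tested 27 members and called 1004 probe sets, against 579 of 23999 in the main fit. With a trended and robust variance, BUB3 was called (adjusted p = 0.0486) and AURKB was not, where 747 probe sets were called. Over 19 alternatives the adjusted p ran from 0.0263 to 0.777 for AURKB and from 0.0364 to 0.912 for BUB3.

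PCNA differed by -0.16 ± 0.07 in apical versus median (adjusted p = 0.24; lower in 7 of 9 animals) and by -0.18 ± 0.07 in apical versus caudal (adjusted p = 0.28; lower in 5 of 8). Its signal ran from 218 to 364 in the apical, 284 to 369 in the median and 297 to 461 in the caudal lobe, with medians of 303, 328 and 330. TOP2A differed by 0.13 ± 0.06 in apical versus median (adjusted p = 0.30), with medians of 202, 203 and 199 in the apical, median and caudal lobes. CCNB1 differed by 0.11 ± 0.11 in apical versus median (adjusted p = 0.68).

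Against the caudal lobe, CDK2 differed by -0.14 ± 0.06 in the apical lobe (adjusted p = 0.27; lower in 7 of 8 animals) and by -0.12 ± 0.05 in the median lobe (adjusted p = 0.41; lower in 7 of 9). RRM1 and RRM2 differed by -0.09 ± 0.05 (adjusted p = 0.44) and -0.13 ± 0.07 (adjusted p = 0.44) in apical versus caudal. In median versus caudal RRM2 differed by -0.17 ± 0.07 (adjusted p = 0.32), CCNB2 by -0.21 ± 0.07 (adjusted p = 0.25) and PTTG1 by -0.17 ± 0.06 (adjusted p = 0.26), the last of which was lower in 8 of 9 animals. In apical versus median PTTG1 differed by 0.12 ± 0.06 (adjusted p = 0.31).

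**Figure D5:**
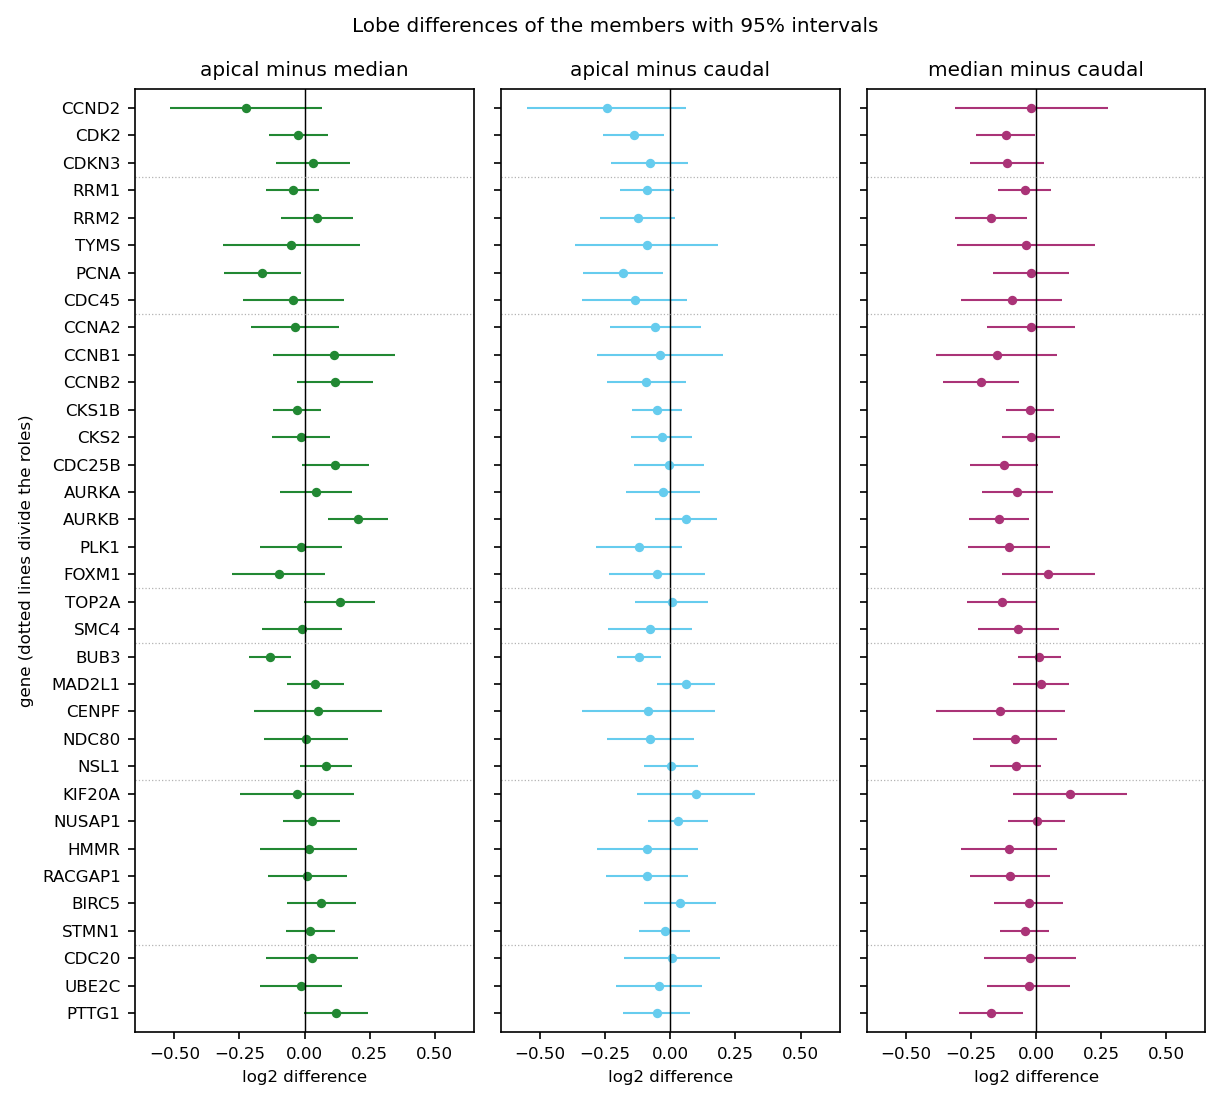
Difference of each of the 34 members between lobes of the same animals (x axis, log2 difference, points) with its 95% interval (lines), genes on the y axis in order of their roles. The x axis spans -0.65 to 0.65; in median minus caudal 29 of 34 points lie below 0.

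By direction, 19 of 34 members had a difference above 0 in apical versus median, 8 in apical versus caudal and 5 in median versus caudal, where 51.3%, 49.0% and 47.4% of all probe sets did. The medians over the members were 0.01, -0.06 and -0.07. The caudal lobe enters both of the last comparisons, so they are not separate evidence.

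Other genes of the cycle were read from further lists. Of 41 replication licensing and fork genes 26 were measured, and none was called between exposures. The nearest were RFC1 and DBF4 in low versus air, at -0.12 ± 0.06 (adjusted p = 0.68) and 0.14 ± 0.08 (adjusted p = 0.69), RPA1 and RPA2 in medium versus air, at -0.19 ± 0.11 (adjusted p = 0.40) and -0.21 ± 0.12 (adjusted p = 0.42), and MCM4 and RPA2 in medium versus low, at -0.54 ± 0.22 (adjusted p = 0.24) and -0.28 ± 0.12 (adjusted p = 0.26). Between lobes, MCM3 and MCM5 of the 26, subunits of the replicative helicase, were called lower in the apical lobe. Of all probe sets, 2.41% were called in apical versus median and 0.167% in apical versus caudal. MCM3 fell by 0.21 in apical versus median (SE 0.06, adjusted p = 0.0498, lower in 9 of 9 animals) and by 0.29 in apical versus caudal (SE 0.06, adjusted p = 0.0499, 8 of 8). MCM5 fell by 0.32 in apical versus caudal (SE 0.06, adjusted p = 0.04, 8 of 8), and MCM2 differed by -0.37 ± 0.09 there without being called (adjusted p = 0.09).

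Of 20 cell cycle inhibitors and antiproliferative genes 14 were measured, and none was called between exposures. CDKN1A, which encodes the p21 inhibitor, had signals of 181, 156 and 138 in air, 195, 186 and 172 in low, and 205, 301, 425 and 310 in medium animals. All medium animals were above all others, and animal 34 was the lowest of them. Of all probe sets, on normalised values, 6.89% had all medium above all air animals and 7.24% all medium above all low animals. CDKN1A differed by 0.86 ± 0.19 in medium versus air (adjusted p = 0.095). GADD45G, a stress-induced gene, read 171, 146 and 198 in air, 195, 219 and 183 in low, and 297, 306, 313 and 536 in medium animals, and differed by 0.94 ± 0.20 (adjusted p = 0.09). Against the low animals the medium difference of GADD45G was 0.73 ± 0.20 (adjusted p = 0.14) and that of CDKN1A 0.66 ± 0.19 (adjusted p = 0.15). In low versus air the nearest were CDKN2D, at -0.28 ± 0.11 (adjusted p = 0.66), and CDKN2B, at 0.47 ± 0.21 (adjusted p = 0.68). Between lobes, CCNG2 and RBL2 of the 14 were higher in apical than in median, by 0.42 ± 0.09 (adjusted p = 0.03) and 0.22 ± 0.06 (adjusted p = 0.04). In that comparison 2.41% of all probe sets were called.

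Of 20 genes of the anaphase promoting complex and the SCF ligase 11 were measured, and of 10 cohesin genes 3, and none was called in any of the 6 comparisons. ANAPC16 came nearest, at -0.29 ± 0.08 in medium versus air (adjusted p = 0.14) and -0.25 ± 0.08 in medium versus low (adjusted p = 0.18), followed by ANAPC5 in the first (-0.25 ± 0.11, adjusted p = 0.31) and ANAPC13 in the second (-0.27 ± 0.12, adjusted p = 0.27). In low versus air ANAPC2 differed by -0.19 ± 0.11 (adjusted p = 0.70) and FBXW7 by -0.09 ± 0.07 (adjusted p = 0.75). Of the cohesin genes, the release factor WAPL differed by 0.18 ± 0.07 in medium versus air (adjusted p = 0.27), and RAD21 and NIPBL by between -0.09 and 0.00 in the 3 exposure comparisons.

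Cell type markers were read beside these values. The summed signal of 14 of 20 T and NK cell markers was 2251 to 2465 in air, 1771 to 2725 in low and 1185 to 2120 in medium animals, and that of 3 of 11 B and plasma cell markers 1887 to 1930, 1476 to 1687 and 1446 to 1703. For 10 of 14 macrophage and monocyte markers it was 6532 to 8231, 7463 to 8977 and 4702 to 8233, for 6 of 13 neutrophil markers 1497 to 2044, 1670 to 1745 and 1700 to 2060, and for 5 of 12 ciliated cell markers 891 to 1210, 1106 to 1406 and 945 to 996. For 11 of 15 epithelial markers it was 9252 to 10737, 10551 to 11338 and 9035 to 12406, and for 8 of 10 endothelial markers 5778 to 6419, 5808 to 6555 and 5763 to 6389.

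The T and NK sums of all 4 medium animals lay below those of the 3 air animals, and so did the B and plasma cell sums of all 7 exposed animals. How often sums of other genes separate the animals in this way was not tested. GNLY, a granule protein of cytotoxic lymphocytes, differed by -1.26 ± 0.29 in medium versus air and was not called (adjusted p = 0.097). It was picked from 14 measured T and NK cell markers, and the directions of the others are not given here. Of the markers, MUC1 was called between exposures and fell by 0.74 in medium versus air (SE 0.08, adjusted p = 0.0197). There 0.129% of all probe sets were called. In apical versus median, where 2.41% of all probe sets were called, some markers differed. The plasma cell gene TNFRSF17 (0.39 ± 0.09, adjusted p = 0.03) and the B cell gene CD79B (0.27 ± 0.07, adjusted p = 0.04) were higher. The epithelial genes KRT19, KRT18 and SFTPD were lower, with differences of -0.43, -0.53 and -0.23. These genes were picked from 3 measured B and plasma cell and 11 measured epithelial markers, and the directions of the others are not given here. Whether a cell type differed between lobes was not tested, nor was the part of these cell types in the members' values.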

How the data were processed

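The authors deposited 1 linear signal intensity per probe set and array, and per the labels 1 µg of total RNA was converted to biotin-labelled cRNA. How probe sets were summarized and scaled is not given in the sources used here. The number of arrays limits the precision. After 124 control probe sets were left out, all 23999 probe sets were tested without a filter. Here log2(signal + 16) was computed from the deposited intensity and quantile normalized, because the lower quartile varied over 0.32 from array to array. Per-animal signals in the report are plain means of the deposited values. For exposure, the value of an animal was the animal term of a linear model with animal and lobe over 28 arrays, and the 3 groups were fitted together with limma 3.58.1 (R 4.3.3; lmFit and eBayes). Lobes were compared with the animal as a block (consensus correlation 0.33), the pairing being the animal number in the titles. Exposure was also fitted within each lobe, and the interaction by an F test of 4 coefficients. Figures used Python 3.11.15. The scripts were tested on simulated data. The members and lists were chosen with earlier results of these data known. Genes named with full values were those called, the 5 with the smallest p in each comparison, TOP2A, CCNB1 and PCNA. Of the other lists they were those called and the 2 with the smallest p in each exposure comparison. Other probe sets were described for CDK2, TYMS, CDC45, AURKA and NSL1. Those of NUSAP1, SMC4 and UBE2C also differed in sign from the brightest in some comparisons and were not described. No lobe difference of a dimmer probe set is given. For cell type markers the summed signals and called genes are printed in their place, with GNLY. TYMS and MCM2 were named after their values were seen. Symbols came from the platform annotation, and all 44 member probe sets carried the same symbol in RefSeq's table. Alternatives covered scaling, offset, brightness filter, variance model, probe set choice, animals left out, complete animals, RNA index, groups in the fit and a random animal effect.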

Additional observations from a re-analysis of the deposited data

Results flagged for a closer look

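Of 34 groups of 4 medium animals, 1 for each member, 3 held an animal far from the other 3 by Dixon's criterion, and chance alone gives about 1 in 20. PCNA had a normalised log2 value of 8.66 in medium animal 34 and 8.25 to 8.27 in the others. CKS2 had 8.30 in medium animal 39, which had the highest RNA index, and 8.65 to 8.70 in the others. CENPF had 6.67 in medium animal 34 and 6.85 to 6.89 in the others. Animal 34 was thus the high animal for PCNA and the low one for CENPF.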

How the results depend on the processing

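The members were refitted under 22 alternatives, 10 of which left out 1 animal. Of 1162 values compared, 1139 were counted as unchanged. Of these, 740 were differences of named members that kept their direction and their side of the threshold. Another 282 were counts of members called that stayed the same. The other 117 were medians over the members that moved by less than their SD between animals, whatever their sign. The count of members called in apical versus median was 0, where 579 probe sets were called. With brighter probe sets it was 2 of 27 tested (AURKB and BUB3), where 1004 probe sets were called. With a trended and robust variance it was 1 (BUB3), where 747 were called. The count in medium versus low was 1 with a random animal effect (AURKB), where 1393 probe sets were called. For the median lobe in medium versus air it was 0 to 1 when an animal was left out. The 1 was KIF20A without medium animal 34, where 396 probe sets were called. Without the animal as a replicate block the count stayed at 0 in all 3 lobe comparisons, with medians of 0.02, -0.05 and -0.06. The median over the members turned sign in low versus air, from -0.07 to 0.00402 without low animal 33. In medium versus low it went from 0.01 to -0.094 without low animal 33. In apical versus median it went from 0.01 to -0.0078 without medium animal 39. Among the named members, signs turned for 5 differences. CCNB1 ranged from -0.15 (without low animal 31) to 0.18 in low versus air, and was also -0.01 without air animal 44. CCNB1 in medium versus low ranged from -0.32 to 0.0105 with an animal left out, the last without low animal 31. TOP2A in low versus air ranged from -0.211 to 0.00314 with an animal left out, the last without low animal 33, and CDC45 in medium versus air was -0.00399 with the mean of its probe sets. PCNA in medium versus air was 0.0122 with median-centred arrays, 0.00444 with the deposited scaling, 0.0964 with only the 8 complete animals, 0.0176 when the RNA index was a covariate and 0.00889 with a random animal effect, and ranged from -0.10 to 0.0394 with an animal left out. The cause was not tested. The number of animals sets the interval widths given, and dim members such as KIF20A depend on the offset.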
